A study of Mus musculus with 8 samples.

Results

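The comparison of palmitate-treated with untreated mouse adipocytes takes 4 of the 8 RNA-seq libraries of the series, 2 from cultures given palmitate and 2 from cultures left untreated, as their sample labels name them. Messenger RNA was sequenced from 3T3-L1 cells, a mouse pre-adipocyte line that differentiates into fat-storing adipocytes in culture. All cultures had been differentiated with insulin, dexamethasone, IBMX and rosiglitazone, and were treated on day 8 for 24 h. The palmitate group received 0.5 mM palmitate conjugated to bovine serum albumin (BSA) and no inhibitor, and the untreated group received no addition that the labels name. BSA and palmitate therefore cannot be told apart here. The other 4 libraries are A66 alone and palmitate plus A66, in which A66, a blocker of the p110α catalytic subunit of PI3-kinase, was given at 2 μM per the labels (the study's methods give another dose, with DMSO as vehicle, and do not describe palmitate). No gene of the design checks these labels, so every direction rests on them. The sources used here do not give 1 direction for untreated against A66 cultures, and whether those 2 labels were exchanged could not be settled; if they were, the libraries called untreated here would be A66 cultures, and each comparison with them would have another control. The other libraries hold the same palmitate contrast in other cultures and are used beside it. Each group is 2 cultures of a single line, so p-values measure the spread between cultures of that line and nothing wider.

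Palmitate is the most common saturated fatty acid of the diet and of fat stores. Adipocytes take it up, activate it to palmitoyl-CoA and either store it as triglyceride, desaturate and elongate it, build it into phospholipids and ceramides, or oxidise it. Fatty acids are known to raise target genes of the PPAR receptors, such as Angptl4, Pdk4, Cpt1a and Plin2, and saturated ones are known in many cells to raise genes of endoplasmic reticulum (ER) stress and inflammation. A separate programme follows membrane sterol. When cholesterol in the ER is low, the transcription factor SREBP2 is released from the anchor Insig1, is cleaved, and switches on genes of cholesterol synthesis and uptake, whereas LXR receptors, which sense oxidised sterols, switch on cholesterol export.

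Untreated libraries held 42247091 and 53401796 counts, palmitate libraries held 57529803 and 53731277, and a count of 3, used as the floor of detection, was 0.0519 to 0.0706 CPM (counts scaled to the same library total) over the 8 libraries. Of 14587 genes with enough counts, 171 (1.17%) passed an adjusted p of 0.05 in the edgeR quasi-likelihood test, and these are called changed. Of these, 92 (0.631% of genes tested) were higher with palmitate and 79 (0.542%) were lower. The changes were small: the median size of a called change was 0.267 on the log2 scale, a 1.20-fold difference, and 10 calls reached 1.5-fold. No gene passed a test for a change beyond 1.5-fold, in which 66 genes had an unadjusted p under 0.05. The 4 libraries were apart, both palmitate values above or below both untreated values, for 170 of the 171 calls, beside 20.3% (above) and 20.2% (below) of all genes tested. Calls were made on these same values, so being apart adds no support to them. The exception, Gm29216, rested on palmitate replicate 2, with 89.2 CPM against 0.881 CPM in the other palmitate culture and 1.34 and 1.15 CPM in untreated cells, and had a log2 fold change of -0.48 without that library.

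**Figure D1:**
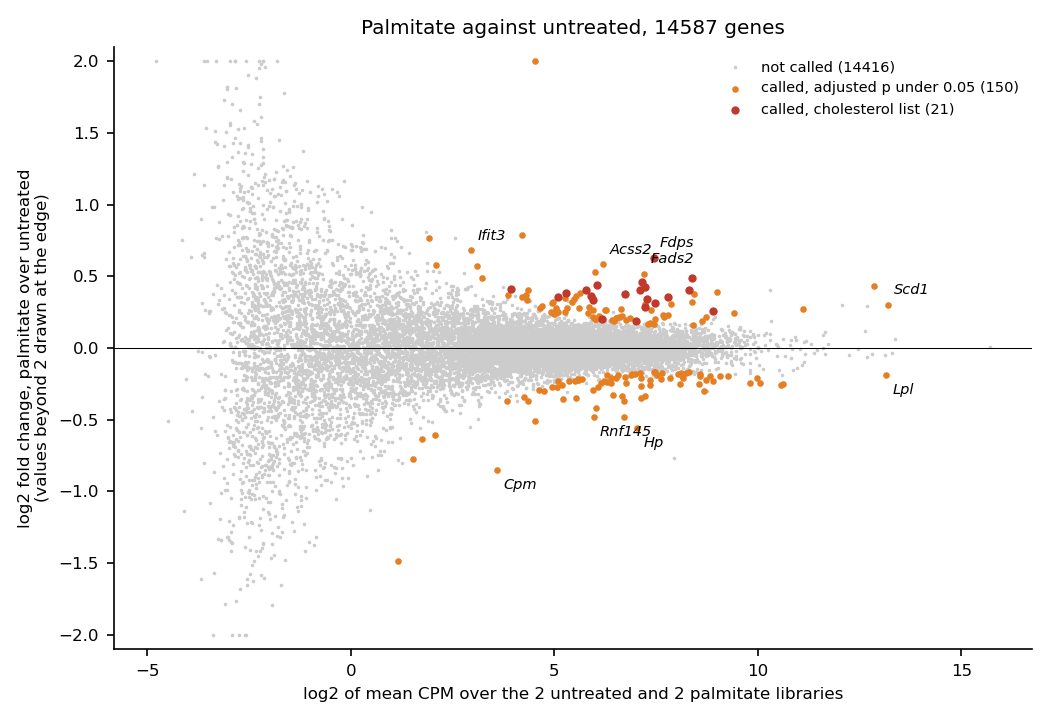
Log2 fold change of palmitate over untreated against mean level for 14587 genes, with called genes in orange and called genes of cholesterol synthesis and uptake in red. The 21 red points all lie above 0, most called changes lie within 0.5 of 0, and Cpm lies lowest among the labelled genes.

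Genes of cholesterol synthesis and uptake rose together. Of 25 genes written in that list, 24 were tested, 21 were called higher and none lower (against 0.631% of all genes called higher), and all 24 had log2 fold changes above 0. Their median log2 fold change was 0.362, beside 0.000532 over all genes tested. The summed level of the list was 2782 and 2861 CPM in the untreated libraries and 3636 and 3615 CPM with palmitate. Of the 92 genes called higher, 22.8% belonged to this list, and so did 11 of the 20 genes with an adjusted p under 0.0001 in the edgeR test.

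The called genes were spread along the pathway from acetyl-CoA to cholesterol. At its start, Hmgcs1, which makes HMG-CoA, had 433 and 435 CPM in untreated cells and 523 and 518 CPM with palmitate, a log2 fold change of 0.26 (SE 0.0390, adjusted p = 0.000403, edgeR).

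In the mevalonate and isoprenoid steps, Mvk (0.35), Mvd (0.38) and Idi1 (0.31 on the log2 scale) rose, while Pmvk had 0.16 and did not pass (adjusted p = 0.146, edgeR). Fdps, farnesyl diphosphate synthase, which supplies both sterols and the lipid groups that are added to proteins, had the largest change of the list. Its level was 131 and 142 CPM in untreated cells and 214 and 209 CPM with palmitate, a 1.55-fold difference (log2 fold change 0.63, SE 0.0442, adjusted p = 1.94e-08, edgeR). The 2 groups were far apart relative to their spread.

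Fdft1, squalene synthase, takes the first step committed to sterols. It went from 115 and 123 CPM to 168 and 160 CPM (log2 fold change 0.46, SE 0.0433, adjusted p = 1.01e-06, edgeR). Sqle, squalene epoxidase, went from 191 and 196 CPM to 247 and 249 CPM (0.36, SE 0.0392, adjusted p = 6.94e-06). Lss, which makes lanosterol, rose by 0.41 on the log2 scale and was called. The late steps that trim lanosterol to cholesterol also rose, with Msmo1 (0.49), Dhcr7 (0.44), Cyp51 (0.43), Tm7sf2 (0.41), Hsd17b7 (0.41), Nsdhl (0.38) and Sc5d (0.36 on the log2 scale) all called. Ebp, the sterol isomerase, was the only tested member whose groups overlapped, with 42.9 and 45.9 CPM against 44.3 and 45.8 CPM.

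Genes that control the pathway rose as well. Srebf2, which encodes SREBP2 and is one of its own targets, went from 137 and 136 CPM to 170 and 177 CPM (0.35, SE 0.0403, adjusted p = 1.68e-05, edgeR). Insig1, the sterol-dependent anchor of SREBP2, went from 262 and 282 CPM to 350 and 371 CPM (0.41, SE 0.0443, adjusted p = 6.86e-06). Stard4, a carrier of cholesterol between membranes, rose by 0.34, and Acat2, which makes acetoacetyl-CoA, by 0.19.

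Leaving out either palmitate library or either untreated library kept 18 to 21 of the 24 called and a median of 0.347 to 0.371. Tm7sf2 lost its call without untreated replicate 1, palmitate replicate 1 or palmitate replicate 2 (adjusted p up to 0.246) and Acat2 without untreated replicate 1 or either palmitate library (up to 0.474, all edgeR).

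**Figure D2:**
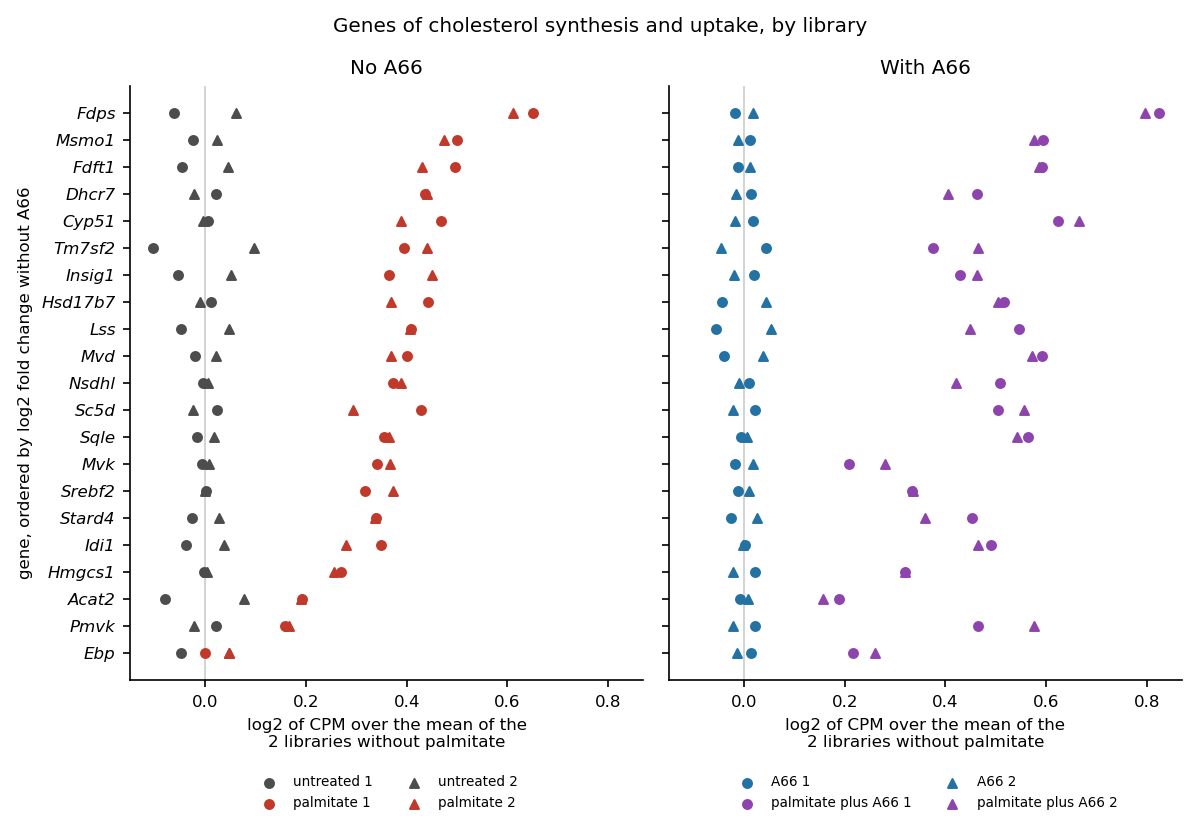
The 21 genes plotted here of the 24 tested genes of cholesterol synthesis and uptake in each library, as log2 of CPM over the mean of the 2 libraries without palmitate, in cultures without A66 (left) and with A66 (right). Palmitate values lie to the right of both control values for every gene plotted but Ebp on the left, and for all plotted genes on the right.

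Since these genes moved together, the promoters of the list were searched for 2 motifs in RefSeq windows on build GRCm38.p6, each with 250 bases before and 50 bases after a transcript start. Of the 24 tested genes, 17 had a window. The letters TCACCCCAC, a known sterol response element, were found on either strand in 1 of the 17 genes (Hmgcs1), beside 0.614% of 27025 genes with a window. The letters CCAAT, bound by NF-Y, the known partner of SREBP at sterol-responsive promoters, were found on either strand in 16 of the 17 (94.1%), beside 41.1% of all genes with a window; this motif was chosen after the expression values had been seen. Matches to the 2 motifs did not overlap in the windows shown. A match is a description of the sequence, not a bound site, and a missing match says only that those letters are not in that window.

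3 of these promoters are shown because they span the pathway and differ in what they hold, with bases matching either motif in capitals and the strand of the gene read 5′ to 3′ up to the base before the start. Hmgcs1 lies on the plus strand (chr13:119690101-119690350), with TCACCCCAC at 137 to 129 bases before the start and the reverse letters ATTGG at 3 places. Msmo1 lies on the minus strand (chr8:64733579-64733828) with CCAAT at 3 places, at 160, 96 and 55 bases before the start. Cyp51 lies on the minus strand (chr5:4104698-4104947) with CCAAT once, at 29 bases before the start.
Hmgcs1: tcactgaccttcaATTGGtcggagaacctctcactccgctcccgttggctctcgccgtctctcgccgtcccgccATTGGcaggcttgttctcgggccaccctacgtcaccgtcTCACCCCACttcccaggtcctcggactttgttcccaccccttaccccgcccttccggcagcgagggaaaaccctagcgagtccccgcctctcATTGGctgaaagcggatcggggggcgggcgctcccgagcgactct
Msmo1: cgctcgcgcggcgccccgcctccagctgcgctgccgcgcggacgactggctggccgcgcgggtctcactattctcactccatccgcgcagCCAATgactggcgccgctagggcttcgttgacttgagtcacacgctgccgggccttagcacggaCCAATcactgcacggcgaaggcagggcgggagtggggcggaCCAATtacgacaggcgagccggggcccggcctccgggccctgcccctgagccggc
Cyp51: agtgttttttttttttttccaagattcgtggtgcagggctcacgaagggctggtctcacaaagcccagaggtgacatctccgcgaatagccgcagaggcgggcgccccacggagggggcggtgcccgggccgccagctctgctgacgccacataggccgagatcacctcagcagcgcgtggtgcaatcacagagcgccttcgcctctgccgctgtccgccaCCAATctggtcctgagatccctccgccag

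Of 17 tested enzymes that desaturate and lengthen fatty acids, 6 were called higher (0.631% of all genes were) and none lower. The other 11 did not pass, 6 of the 17 had log2 fold changes below 0, and the median was 0.157. Fads2, which starts the conversion of essential fatty acids into long polyunsaturated ones, had 121 CPM in both untreated libraries and 175 and 171 CPM with palmitate (log2 fold change 0.52, SE 0.0426, adjusted p = 1.39e-07, edgeR). Fads1, which acts later on the same chain, went from 302 and 301 CPM to 381 and 402 CPM (0.37, SE 0.0406, adjusted p = 6.86e-06). For both genes the palmitate values were well clear of the untreated ones.

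Scd1, the stearoyl-CoA desaturase that puts the first double bond into palmitate and stearate, had 8458 and 8354 CPM in untreated cells and 9990 and 10740 CPM with palmitate. The difference was 0.30 on the log2 scale (SE 0.0588, adjusted p = 0.00866, edgeR), and it lost its call without either untreated library (adjusted p up to 0.0684). Its paralogue Scd2 rose by 0.28 (SE 0.0404, adjusted p = 0.000342) and kept its call in every leave-one-out fit; reads that match both paralogues could be split between them. Elovl5, an elongase of polyunsaturated chains, and Tecr, the last enzyme of the elongation cycle, rose by 0.19 and 0.22. Elovl5 lost its call without untreated replicate 2 or palmitate replicate 1 (adjusted p up to 0.259) and Tecr without untreated replicate 1 or palmitate replicate 2 (up to 0.109). Elovl6, which lengthens palmitate itself, had 42.7 and 42.8 CPM against 48.5 and 44.3 CPM and did not pass (0.12, adjusted p = 0.382).

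Of 16 genes of de novo lipogenesis, 5 were called higher and 1 lower (0.631% and 0.542% of all genes tested), and the median log2 fold change was -0.0464. The members that rose either supply acetyl-CoA or also belong to the lists above. Acss2, which makes acetyl-CoA from acetate in the cytosol, went from 56.2 and 61.2 CPM to 91.1 and 84.9 CPM, a 1.5-fold rise (0.58, SE 0.0544, adjusted p = 1.01e-06, edgeR). Acly, which cleaves citrate to acetyl-CoA, went from 438 CPM in both untreated libraries to 581 and 569 CPM (0.39, SE 0.0389, adjusted p = 2.09e-06). Slc25a1, the mitochondrial citrate exporter, rose by 0.23, with no call without untreated replicate 1 (adjusted p up to 0.128). Scd1 and Insig1 were the others.

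The enzymes that build the fatty acid chain itself did not pass. Fasn, fatty acid synthase, had 1029 and 1018 CPM in untreated cells and 939 and 1007 CPM with palmitate (-0.07, adjusted p = 0.530, edgeR), and Acaca, acetyl-CoA carboxylase, had 393 and 388 CPM against 382 and 385 CPM (-0.03, adjusted p = 0.852). Srebf1, which encodes the SREBP form that drives lipogenesis, had overlapping groups, 156 and 173 CPM against 148 and 165 CPM. Thrsp, a lipogenic protein induced by thyroid hormone and carbohydrate, fell by 0.26 (adjusted p = 0.0331), with no call without either untreated library or palmitate replicate 1 (adjusted p up to 0.274). Mlxipl, which encodes the glucose sensor ChREBP, had 8.08 and 9.95 CPM against 5.20 and 7.20 CPM and did not pass (-0.55, adjusted p = 0.0751).

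Among 15 tested genes of cholesterol efflux and LXR targets, 2 were higher and 1 lower (0.631% and 0.542% of all genes tested), with a median of 0.0425. Abca1, the transporter that exports cholesterol to apolipoprotein A-I, had 584 and 557 CPM in untreated cells and 481 and 516 CPM with palmitate. It fell by 0.20 on the log2 scale (SE 0.0442, adjusted p = 0.0280, edgeR), and lost its call without untreated replicate 1 or palmitate replicate 1 (adjusted p up to 0.300). Abcg1, a second exporter, had 101 and 96.8 CPM against 80.7 and 92.5 CPM and did not pass (-0.19, adjusted p = 0.114). Npc2, which moves cholesterol out of lysosomes, rose by 0.19, with no call without untreated replicate 1 or palmitate replicate 1 (adjusted p up to 0.333). Scd1 was the other member called higher.

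None of the 17 tested genes of the fatty acid-responsive (PPAR target) list was called, and their median log2 fold change was 0.0132. Of all genes tested, 1.17% were called, so having no call does not set a list of this size apart. Plin2, which coats small lipid droplets, came closest, with 209 and 226 CPM against 242 and 248 CPM (0.17, SE 0.0435, adjusted p = 0.0572, edgeR). Pdk4, which turns off pyruvate oxidation, had 55.9 and 57.8 CPM against 56.1 and 54.2 CPM, and Cpt1a, the gate of mitochondrial fatty acid oxidation, had 60.2 and 62.2 CPM against 64.2 and 62.8 CPM. Angptl4, an inhibitor of lipoprotein lipase, had overlapping groups, 113 and 119 CPM against 99.0 and 117 CPM. The letters AGGNCAAAG, one side of a PPAR element, were found in 0 of 13 windows of the list, beside 2.35% of genes with a window. Beside the same 1.17%, none of 27 genes of fatty acid oxidation, 16 lipid droplet proteins, 76 nuclear genes of oxidative phosphorylation or 13 mitochondrially encoded genes was called. Their medians were -0.0165, -0.0248, 0.0172 and -0.0388.

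Among genes of fatty acid uptake and activation, 3 of 27 were higher and 1 lower (0.631% and 0.542% of all genes tested), with a median of -0.0130. Acyl-CoA synthetases moved in opposite directions. Acsl3, found at the ER and on lipid droplets, rose by 0.27 (SE 0.0444, adjusted p = 0.00124, edgeR), and Acsl4, which prefers arachidonate, went from 152 and 148 CPM to 192 and 168 CPM (0.26, adjusted p = 0.00525). Acsl1, the main long-chain acyl-CoA synthetase of adipocytes, went from 1747 and 1665 CPM to 1384 and 1483 CPM (-0.25, SE 0.0467, adjusted p = 0.00551). Acsl4 lost its call without palmitate replicate 1 (adjusted p = 0.183), and Acsl1 without untreated replicate 1 or palmitate replicate 1 (up to 0.0984).

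**Figure D3:**
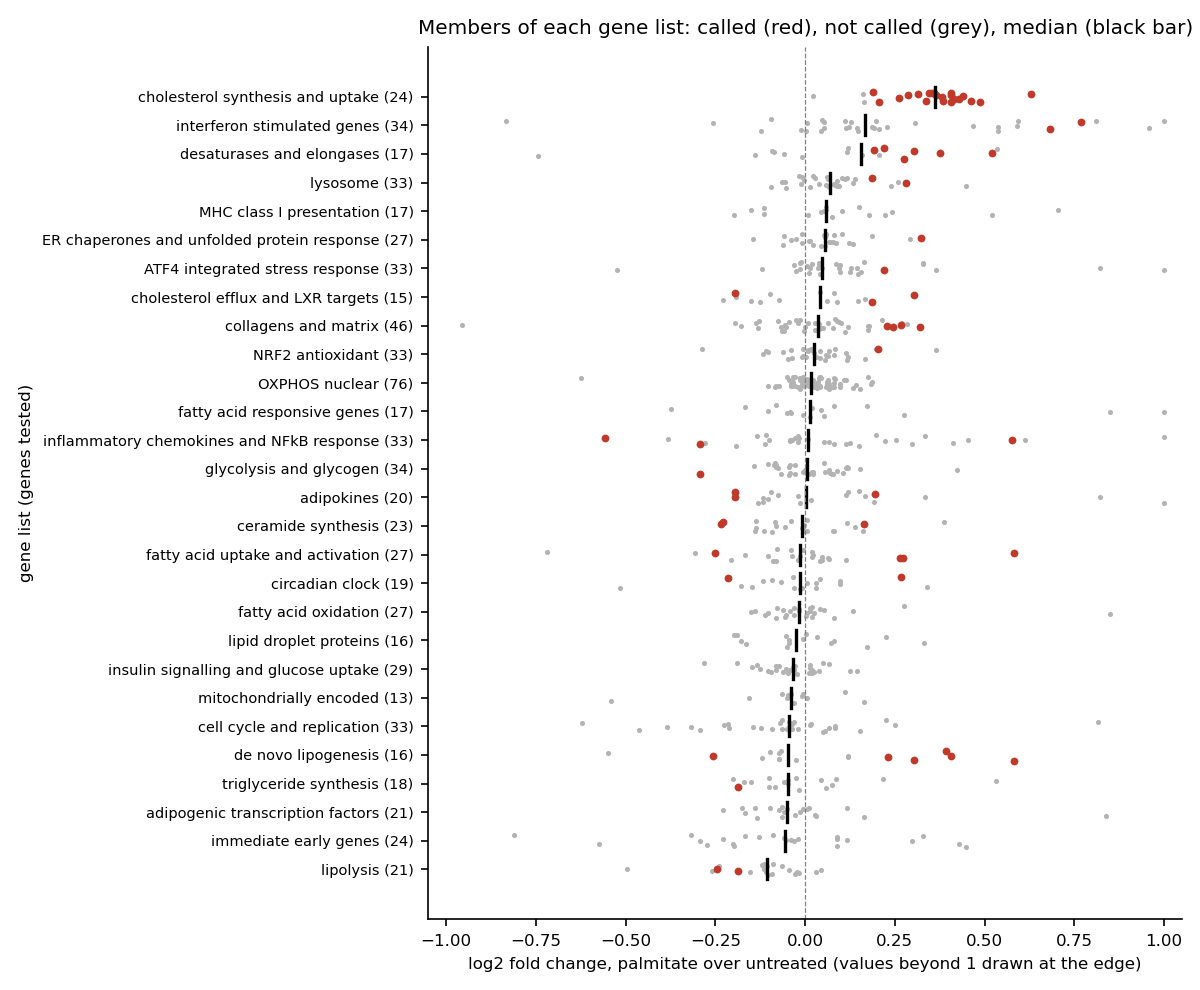
Log2 fold change of palmitate over untreated for the tested members of the gene lists (marker and non-poly(A) lists are not drawn), ordered by median, with called members in red, black bars at list medians and a dashed line at 0. Of the lists drawn, cholesterol synthesis and uptake has the highest median, 0.362, and lipolysis the lowest, -0.106.

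Of 21 genes of lipolysis, only 2 had log2 fold changes above 0, and the median was -0.106. The list mixes lipases with genes that restrain them, such as G0s2, Pde3b and Angptl4, so its median gives no direction for lipolysis itself. The groups were apart with palmitate lower for 10 of them, beside 20.2% of all genes, and 2 passed, beside 0.542% of all genes called lower. Pnpla2, the lipase that starts triglyceride breakdown, went from 1156 and 1149 CPM to 903 and 1039 CPM (-0.25, SE 0.0517, adjusted p = 0.0164, edgeR). Lpl, lipoprotein lipase, which releases fatty acids from circulating triglyceride, went from 9922 and 9572 CPM to 8408 and 8714 CPM (-0.19, SE 0.0438, adjusted p = 0.0331). Lipe, hormone-sensitive lipase, had overlapping groups, 835 and 820.0 CPM against 708 and 821 CPM. Both calls were lost without either untreated library or palmitate replicate 1 (adjusted p up to 0.270 for Pnpla2 and 0.313 for Lpl). Of 18 genes of triglyceride synthesis, 1 was called (0.542% of all genes were called lower), Gpam, the first acyltransferase of the pathway, which fell by 0.19 (adjusted p = 0.0320) and was not called without any 1 of the 4 libraries (adjusted p 0.115 to 0.120).

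Falls of larger size lay outside the lipid lists. Cpm, the gene of carboxypeptidase M, a membrane enzyme that trims peptides, went from 14.98 and 16.1 CPM to 8.52 and 8.72 CPM (-0.85, SE 0.114, adjusted p = 0.000117). Hp, haptoglobin, which binds free haemoglobin, went from 145 and 168 CPM to 96.1 and 117 CPM (-0.56, SE 0.0706, adjusted p = 5.08e-05). Both kept their calls without each library in turn.

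Rnf145, an ER ubiquitin ligase and an LXR target, went from 76.5 and 68.9 CPM to 49.97 and 53.9 CPM (-0.48, SE 0.0590, adjusted p = 3.34e-05, edgeR). Apoc1, an apolipoprotein of triglyceride-rich particles, went from 121 and 124 CPM to 82.0 and 93.9 CPM (-0.48, SE 0.0755, adjusted p = 0.000854). It lost its call under DESeq2, as did Pnpla2, Scd1 and Thrsp. Coq8a, needed for coenzyme Q synthesis, fell by 0.42, Snn by 0.37, and Lpcat1, which remakes phosphatidylcholine, by 0.37. The receptors Adcyap1r1, which binds the peptide PACAP, and Mertk, which recognises dying cells, fell by 0.51 and 0.37, and the leukocyte integrin gene Itgal fell from 5.37 and 4.77 CPM to 3.21 and 3.41 CPM.

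Rnf145, Coq8a and Snn kept their calls without each library. Adcyap1r1 lost it without palmitate replicate 1 (adjusted p = 0.0518, edgeR), Itgal without untreated replicate 1 or either palmitate library (up to 0.274), Mertk without the same 3 libraries (up to 0.451) and Lpcat1 without either untreated library or palmitate replicate 1 (up to 0.191).

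**Figure D4:**
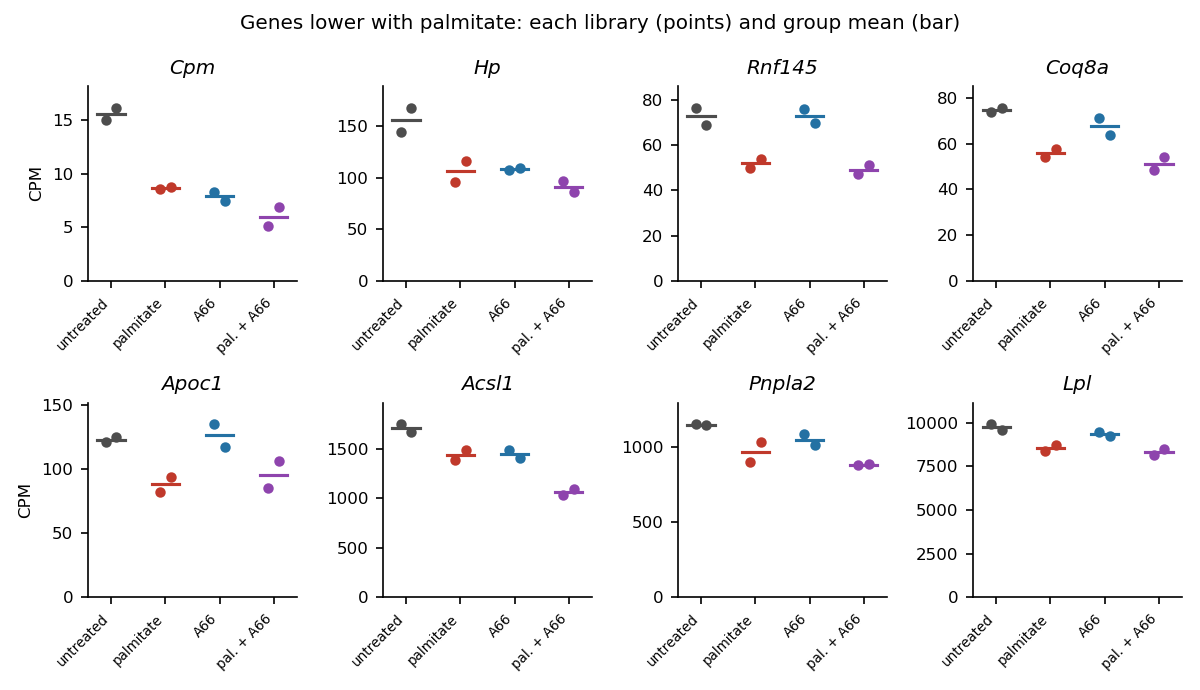
CPM of 8 genes called lower with palmitate, in each of the 8 libraries, with points for libraries and bars for group means. Palmitate values lie below both untreated values for all 8, by the most, relative to the untreated mean, for Cpm.

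Of 27 ER chaperones and genes of the unfolded protein response, 20 had log2 fold changes above 0 (median 0.0554), beside 7321 of all 14587 genes tested, and 1 was called higher, beside 0.631% of all genes. Manf, a secreted ER stress protein, went from 35.6 and 40.5 CPM to 49.3 and 46.2 CPM (0.32, SE 0.0632, adjusted p = 0.00935, edgeR), with no call without untreated replicate 1 or palmitate replicate 1 (adjusted p up to 0.174). Hspa5, the main ER chaperone, had 1148 and 1237 CPM against 1428 and 1286 CPM and did not pass (0.19, adjusted p = 0.0660). Of 33 genes of the ATF4 response, 26 were above 0 (median 0.0478) and 1 was likewise called higher, Mthfd2, a mitochondrial folate enzyme, which rose by 0.22, with no call without untreated replicate 1 or palmitate replicate 1 (adjusted p up to 0.349). Atf4 itself had 318 and 332 CPM against 360 CPM in both palmitate libraries (0.15, adjusted p = 0.0914). Fgf21, a hormone induced by this response, had 0.447 and 0.462 CPM against 1.07 and 0.895 CPM and did not pass (adjusted p = 0.131). The letters TGATGNAA, the CEBP-ATF element of ATF4 targets, were found on either strand in 9 of 29 members with a promoter window (31.0%), beside 4.51% of all genes with one. Of 33 antioxidant genes of the NRF2 list, only Gsta4, a glutathione transferase for lipid aldehydes, was called, beside 0.631% of all genes called higher. It rose by 0.20, with no call without either untreated library or palmitate replicate 1 (adjusted p up to 0.339). The antioxidant element TGANNNNGC was found in 17 of 29 windows (58.6%), beside 45%.

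Of 33 tested inflammatory genes, 1 was higher and 2 lower, beside 1.17% of all genes called, with a median of 0.00865, and Il1b and Tnf had 0 counts in every library (up to 0.0706 CPM). The chemokine Ccl9 rose from 3.74 and 3.14 CPM to 5.06 and 5.16 CPM (0.58, SE 0.138, adjusted p = 0.0371, edgeR), a call that was lost without any 1 of the 4 libraries (adjusted p up to 0.229). Hp, described above, and Nfkbiz, a regulator of secondary NF-kB targets, fell. Nfkbiz fell by 0.29, with no call without either untreated library or palmitate replicate 1 (adjusted p up to 0.256). Ccl2, the main monocyte chemokine, had 10.2 and 9.76 CPM against 7.26 and 8.09 CPM and did not pass (-0.38, adjusted p = 0.323), and Il6 had 0.659 and 0.980 CPM against 1.37 and 1.17 CPM (adjusted p = 0.427).

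Of 34 tested interferon-stimulated genes, 29 were above 0 (median 0.167) and 2 were called higher, beside 0.631% of all genes. The groups were apart with palmitate higher for 17, beside 20.3% of all genes. Ifit3, an antiviral RNA-binding protein, went from 6.43 and 5.55 CPM to 9.42 and 9.75 CPM (0.68, SE 0.116, adjusted p = 0.00209, edgeR) and kept its call without each library. Its near-copy Ifit3b, with which it may share reads, went from 3.27 and 2.31 CPM to 4.99 and 4.42 CPM (0.77, adjusted p = 0.0230). Irgm2, an interferon-induced GTPase outside the list, went from 7.61 and 6.19 CPM to 9.71 and 10.8 CPM (0.57, adjusted p = 0.0135). Ifit3b lost its call without untreated replicate 2 or palmitate replicate 1 (adjusted p up to 0.241) and Irgm2 without untreated replicate 2 or palmitate replicate 2 (up to 0.155). None of 17 genes of MHC class I presentation was called, beside 1.17% of all genes (median 0.0581).

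Of 46 collagen and matrix genes, 4 rose and none fell, beside 0.631% and 0.542% of all genes tested (median 0.0367). Col1a1, the main chain of fibrillar collagen I, went from 631 and 626 CPM to 717 and 773 CPM (0.25, SE 0.0437, adjusted p = 0.00331, edgeR) and kept its call without each library. Postn, periostin, went from 313 and 276 CPM to 375 and 360 CPM (0.32, adjusted p = 0.00323), Lum, a collagen-binding proteoglycan, rose by 0.27 and Fbn1, the core of microfibrils, by 0.23. Postn lost its call without untreated replicate 2 (adjusted p = 0.0675), Lum without untreated replicate 2 or palmitate replicate 2 (up to 0.118) and Fbn1 without untreated replicate 2 or palmitate replicate 1 (up to 0.206). Serpinh1, the collagen chaperone, outside the list, rose by 0.22 (adjusted p = 0.00323) and kept its call without each library.

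Of 33 lysosomal genes, 2 rose, Npc2 among them, beside 0.631% of all genes tested. The groups were apart with palmitate higher for 21 (median 0.0688), beside 20.3% of all genes. In ceramide metabolism, where palmitoyl-CoA is the first substrate, 1 of 23 rose and 2 fell, beside 0.631% and 0.542% of all genes tested (median -0.00844). Sptlc1, a subunit of the enzyme that joins palmitoyl-CoA to serine, went from 48.3 and 49.9 CPM to 42.5 and 41.4 CPM (-0.23, adjusted p = 0.0273, edgeR), Col4a3bp, the ceramide carrier between ER and Golgi, fell by 0.24, and Asah1, acid ceramidase, rose by 0.16. Leave-one-out fits lost Sptlc1 without any 1 of the 4 libraries (adjusted p up to 0.129), Asah1 without either untreated library or palmitate replicate 1 (up to 0.273), and Col4a3bp without untreated replicate 1 or palmitate replicate 2 (up to 0.0967).

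Of 20 adipokines, 1 rose and 2 fell, beside 0.631% and 0.542% of all genes tested (median 0.00168). Igf1, the growth factor, went from 104 and 99.1 CPM to 114 and 118 CPM (0.19, adjusted p = 0.0221, edgeR), Agt, angiotensinogen, from 491 and 480.3 CPM to 410 and 438 CPM (-0.20, adjusted p = 0.0232), and Vegfa, the angiogenic factor, from 403 and 406 CPM to 347 and 361 CPM (-0.19, adjusted p = 0.0123). Of 34 genes of glycolysis and glycogen, Pfkfb3, which makes the activator of phosphofructokinase, fell by 0.29 (adjusted p = 0.00277). Of 19 clock genes, Bhlhe40 rose by 0.27 and Per1 fell by 0.21 (medians 0.00593 for glycolysis and -0.0137 for the clock). No other member of these 2 lists was called, beside the same 0.631% and 0.542% of all genes. These calls were lost without palmitate replicate 1 for Pfkfb3 (adjusted p = 0.0895), without untreated replicate 1 for Bhlhe40 (0.0646), without untreated replicate 1 or palmitate replicate 1 for Agt (up to 0.274), without either untreated library or palmitate replicate 1 for Vegfa (up to 0.138) and Per1 (up to 0.465), and without untreated replicate 2 or either palmitate library for Igf1 (up to 0.137).

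None of 29 genes of insulin signalling, 21 adipogenic transcription factors, 33 genes of the cell cycle or 24 immediate early genes was called, beside 1.17% of all genes. Their medians were -0.0335, -0.0497, -0.0460 and -0.0558. Slc2a4, the insulin-responsive glucose transporter, had 157 and 155 CPM against 134 and 150 CPM (-0.14, adjusted p = 0.207, edgeR), and Pparg, the master regulator of adipocytes, had 314 and 310 CPM against 293 and 305 CPM (-0.06, adjusted p = 0.607). A failure to pass does not show that these values were equal.

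The cells carried the markers of their label. The 10 adipocyte markers summed to 8929 and 9210 CPM in untreated cells and 8227 and 8988 CPM with palmitate, none was called, and 9 had log2 fold changes below 0 (median -0.0851). Adipoq, adiponectin, had 2259 and 2347 CPM against 2068 and 2245 CPM. In bulk RNA, fewer differentiated cells and less RNA of these genes per cell cannot be told apart, which also touches the lipolysis genes. Pre-adipocyte markers summed to 387 and 366 CPM against 384 and 386 CPM, with Dlk1 at 0 counts, and macrophage markers to 13.6 and 14.3 CPM against 15.6 and 16.8 CPM, with Adgre1 at 0 counts in every library and Ptprc at 0 counts in these 4. Brown adipocyte markers summed to 80.7 and 81.4 CPM against 75.3 and 74.7 CPM with Ucp1 at 0, endothelial markers to 1.25 and 1.03 CPM against 0.881 and 1.02 CPM, and muscle markers to 43.0 and 41.6 CPM against 42.9 and 47.5 CPM with Myod1 at 0. None of the markers on these lists was called in this contrast without A66, beside 1.17% of all genes.

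A list written for RNAs that oligo-dT should not capture had a higher summed level with palmitate than in untreated libraries. It also holds Lars2, which encodes a protein, and histone genes, so it is not purely of RNAs without a poly(A) tail. It summed to 1105 and 1333 CPM in untreated libraries and 1385 and 1754 CPM with palmitate. None of its 9 tested members was called, beside 1.17% of all genes. Gm42418, which overlaps ribosomal RNA sequence, had 5961 and 6705 CPM against 7568 and 9538 CPM (0.43, adjusted p = 0.0188, edgeR), and Gm23935 had 11.02 and 15.9 CPM against 17.9 and 29.2 CPM (0.79, adjusted p = 0.0284). Both lost their calls without untreated replicate 1 or palmitate replicate 2 (adjusted p up to 0.235 and 0.319). With A66 alone the list summed to 1542 and 2066 CPM, and with palmitate plus A66 to 1860 and 2238 CPM. Those groups overlapped, and replicate 2 was higher than replicate 1 in every group. Gm42418 had 9754.5 and 11214 CPM with A66 alone, above both palmitate libraries without A66. Higher levels than in the untreated libraries were thus also seen without palmitate. The part of these RNAs in the other results was not tested.

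The palmitate contrast was also made in cultures that all received A66, which share no library with the first contrast. Both contrasts came from the same fit over all 8 libraries and share its estimate of the spread, so their calls are not fully independent. There, 398 genes were called, 213 higher (1.46%) and 185 lower (1.27%). Of the 171 calls without A66, 152 had the same direction with A66, 81 of the 92 higher and 71 of the 79 lower. The share of all genes tested with the same direction is not reported here. For 94 the call itself was repeated, each in the same direction, which is 55.0% of the calls without A66 and 23.6% of those with A66.

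All 24 tested genes of cholesterol synthesis and uptake were called higher with A66 (1.46% of all genes were), at a median log2 fold change of 0.456. Their summed level went from 2498 and 2493 CPM with A66 alone to 3461 and 3436 CPM with palmitate plus A66. Fdps went from 124 and 127 CPM to 223 and 218 CPM (0.81, adjusted p = 1.29e-10, edgeR), and Pmvk and Ebp, which had not passed without A66, had 0.52 and 0.24. The interaction test did not separate the 2 effects for either (adjusted p = 0.132 and 0.472).

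Other genes called without A66 had these values with it. Cpm had 8.32 and 7.42 CPM with A66 alone, near its palmitate level without A66, and 5.07 and 6.86 CPM with palmitate plus A66, and did not pass (-0.40, adjusted p = 0.0960, edgeR; interaction adjusted p = 0.495). Ifit3 had 5.27 and 5.69 CPM against 5.48 and 5.94 CPM. The median of the interferon-stimulated list was -0.133, with none called higher and 2 lower, beside 1.46% and 1.27% of all genes. Col1a1 had 586 and 595 CPM against 576 and 609 CPM. Of the ATF4 list, 12 of 33 genes were called higher with A66 (median 0.140), beside 1.46% of all genes tested. Of the lipolysis list, 8 of 21 were called lower (median -0.167), beside 1.27% of all genes. Of the 10 adipocyte markers, 7 were also called lower with A66 (median -0.23), beside the same 1.27%. Among all genes tested the interaction passed for 1 gene (0.00686%), Hmox1, and 1155 genes had an unadjusted p under 0.05, so none of Cpm, Ifit3 and Col1a1 passed the test of the difference itself. The differences between list medians and counts were not tested.

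**Figure D5:**
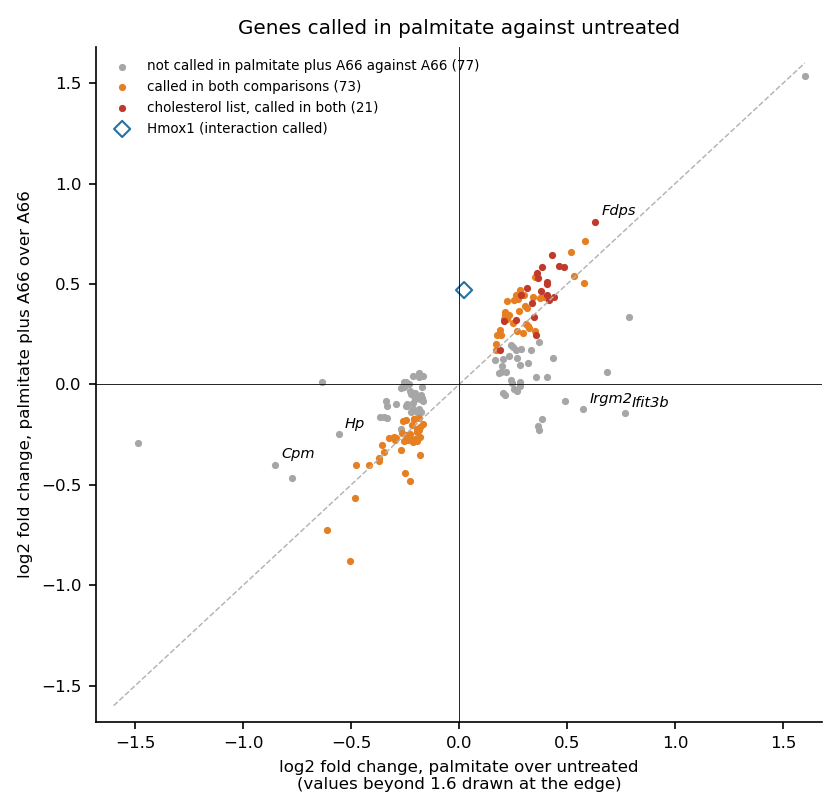
Log2 fold change of palmitate with A66 present against that without A66 for the 171 genes called without A66, plus Hmox1, with the dashed line where both are equal. The 21 red cholesterol genes lie near or above the line, Cpm and Ifit3b lie far from it, and Gm29216 is drawn at the right edge.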

How the data were processed

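Poly(A)-selected RNA of 8 cultures (4 groups of 2) was sequenced in paired ends with a stranded kit. The authors aligned the reads to GRCm38 with TopHat2 2.0.11, per the submitters' processing notes, and counted them per gene with HTSeq; the annotation and the strand setting of the counting are not given in the sources used here. The deposited table holds raw counts for 43629 genes. It also holds the authors' own DESeq2 comparisons, deposited as scores (mean level and test statistic), log2 fold changes with their errors, and p-values, none of which was used.

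Groups were taken from the sample labels. Counts were tested with the quasi-likelihood F test of edgeR 4.0.16 (R 4.3.3, limma 3.58.1) on 4 group means over all 8 libraries, after TMM scaling (factors 0.982 to 1.013) and filterByExpr with a minimum count of 10, which left 14587 genes. P-values were adjusted by the Benjamini-Hochberg method over all genes tested, and genes under 0.05 were called. All tests were two-sided. CPM values are counts scaled to a common library total after TMM. The script was tested on simulated data. Replicate libraries differed beyond counting noise. The labels number the libraries of a group, so p-values measure the spread between these samples. With 4 residual degrees of freedom, the median standard error was 0.0778 (log2).

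Symbols and coordinates were from GENCODE M21 (GRCm38), and promoter sequences from RefSeq (GRCm38.p6). 35 gene lists (813 genes, 810 matched) were used. Genes were named by rule: the 15 largest rises and falls among calls with groups apart and a mean of at least 1 CPM, the 4 members of each list with the smallest p, and a fixed set; not every such gene is printed, and others were chosen after their values were seen. The members and lists were chosen with earlier results of these data known. Alternatives were RLE scaling, no scaling beyond library size, DESeq2 1.42.0, 2 other low-count filters, the 4 libraries alone, the replicate number as a block, a 1.5-fold minimum change and leaving out each library. Some genes of the lists are counted but not reported here.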

Additional observations from a re-analysis of the deposited data

Results flagged for a closer look

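Hmox1, haem oxygenase, was the 1 gene whose palmitate effect differed between cultures with and without A66 by the interaction test. Its level was 373 and 401 CPM in untreated cells and 394 and 393 CPM with palmitate (log2 fold change 0.02), and 352 and 358 CPM with A66 alone and 494 and 489 CPM with palmitate plus A66 (0.47). The effects differed by 0.447 on the log2 scale (adjusted p = 0.00194, edgeR).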

How the results depend on the processing

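The counts called moved under several alternatives. Of 171 calls (92 higher, 79 lower), there were 396 (244 and 152) without the low-count filter, 79 (54 and 25) with a replicate block in the 4 libraries alone, and 0 (0 and 0) beyond 1.5-fold, where 66 genes had an unadjusted p under 0.05. Leaving out 1 library gave 71 to 245 calls (53 to 121 higher, 15 to 142 lower): 82 without untreated replicate 1, 170 without untreated replicate 2, 71 without palmitate replicate 1 and 245 without palmitate replicate 2, of which 72, 86, 61 and 129 were among the 171. DESeq2 gave 214 calls, RLE scaling 173, and the 4 libraries alone 132. Library size alone gave 188, with 83 higher and 105 lower, so more calls were lower than higher there. The replicate block over all 8 libraries gave 195 calls, 170 of them among the 171. To look for pairing, the log2 CPM difference between replicates 1 and 2 of each group was correlated between groups over 8950 genes. These correlations of differences ran from -0.159 to 0.172, so the numbers were not taken as pairs. Of the cholesterol list, 18 to 21 of 24 were called under every alternative except the 1.5-fold minimum, which called 0. DESeq2 kept 155 of the 171 calls, gave no adjusted p for 6 (Ifit3b, Ccl9 and Itgal among them) and lost the others, of which Apoc1, Pnpla2, Scd1, Thrsp, C4b, Gm42418, Gm23935 and Gm29216 are named here. Among named genes, the 4 libraries alone lost the calls of Lpl, Abca1, Npc2, Agt, Elovl5, Gsta4, Nfkbiz, Per1, Acat2, Asah1 and Ccl9. The replicate block in the 4 libraries kept only 73 of the 171 calls. Among the many it lost were C3, Col1a1 and Serpinh1, which kept their calls without each library. The interaction was called for 1 gene, for 2 with library size alone, 3 with the replicate block and 21 with DESeq2. Of the 171 calls, 38 were kept under every alternative except the 1.5-fold minimum, 18 of them in the cholesterol list. Without 1 library, sign changes were seen for Ebp (-0.0253 without untreated replicate 1, to 0.0722 without untreated replicate 2), Srebf1 (0.00883 without untreated replicate 2 and 0.0045 without palmitate replicate 1, to -0.151 without palmitate replicate 2), Angptl4 (0.0102 without palmitate replicate 1, to -0.223 without palmitate replicate 2), Hmox1 (-0.0275 without untreated replicate 1, to 0.0746 without untreated replicate 2) and Gm29216 (-0.484 without palmitate replicate 2, to 6.17 without palmitate replicate 1). The median of the fatty acid-responsive list, and of other lists near 0, also changed sign in such fits. The causes were not tested.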

Other observations

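Among the 79 genes called lower, several encode factors of RNA splicing and nuclear RNA; they were picked after their values were seen and support no statement about the class. Pnisr went from 177 and 176 CPM to 149 and 153 CPM (log2 fold change -0.22, adjusted p = 0.00480, edgeR). Srsf5, a splicing factor, went from 511 and 523 CPM to 426 and 457 CPM (-0.23, adjusted p = 0.0101), and Neat1, the RNA scaffold of nuclear paraspeckles, went from 946 and 990 CPM to 791 and 843 CPM (-0.25, adjusted p = 0.00420). The kinase gene Clk1 had -0.21, and Hnrnpa2b1 had -0.21. With A66 present, the log2 fold changes were -0.05 for Pnisr, -0.04 for Srsf5, -0.18 for Neat1, -0.06 for Clk1 and -0.07 for Hnrnpa2b1. Calls were lost without untreated replicate 2 or palmitate replicate 1 for Srsf5 (adjusted p up to 0.156), Neat1 (up to 0.0685) and Clk1 (up to 0.294), without palmitate replicate 1 for Pnisr (0.0693) and without untreated replicate 2 for Hnrnpa2b1 (0.0639).

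C3, the central complement component, fell from 1667 and 1619 CPM to 1348 and 1398 CPM (-0.26, SE 0.0434, adjusted p = 0.00186, edgeR) and kept its call without each library. C4b went from 408 and 412 CPM to 316 and 373 CPM (-0.25, adjusted p = 0.0203), with no call without either untreated library or palmitate replicate 1 (adjusted p up to 0.335). Among the larger rises outside the lists, Aldh1a7, an aldehyde dehydrogenase, went from 49.6 and 54.8 CPM to 78.3 and 72.6 CPM (0.53), and Lrpap1, a chaperone of the secretory pathway, from 133 and 135 CPM to 168 and 164 CPM (0.31). Both kept their calls without each library.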
